A study of Mus musculus with 8 samples.

Results

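Ubiquitin-specific proteases (Usp enzymes) are the largest family of deubiquitinases, cysteine proteases that remove ubiquitin from proteins and so act against the ubiquitin ligases. Their genes were followed here in cultured mouse hippocampal neurons given melanin-concentrating hormone (MCH). All genes whose symbol is Usp, a number and at most 1 letter were taken, and those with at least 10 estimated counts in at least 4 of the 8 libraries were kept as members. The rule kept 46 of the 50 Usp genes in a table of 45706 genes. *Usp2* was singled out and selected on its lower level after MCH in these same wells, so its values are a description with no test, and tests are given for the 45 other members.

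The neurons came from C57/Bl6 wild-type mice at embryonic day 18, were collected on day 12 to 14 in vitro, and received either H2O (vehicle, 4 wells) or 1 µM MCH peptide (4 wells) for 4 h. All wells carried the same genotype with no further allele stated, although the sample labels also hold an Alzheimer's disease tag. For each treatment, 2 wells were taken from each of 2 cultures, and the culture of each numbered replicate is not given in the sources used here, so *P* values measure the spread between wells. Poly-A RNA was sequenced to between 26083936 and 31844861 estimated counts per well. In both treatments, replicates 1 and 2 stood apart from replicates 3 and 4 on the first principal component of the counts (59.8% of the variance after the treatment means were removed), and results are given within each of these sides where they rest on them. Neuron markers summed to 6999 to 8051 CPM (counts scaled to a common library size) in the 8 wells, and astrocyte markers to 344.5 to 1719 CPM.

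*Usp2* is known as a rhythmically expressed deubiquitinase in many tissues, and its protein acts on clock proteins such as Per1 and Cry1 and on the p53 ligase Mdm2. The gene lies on the plus strand at chr9:44067021-44095627 (GRCm38, GENCODE vM21), where 2 start sites, which took most of its reads here, give proteins with different amino termini and a shared catalytic part. *Usp2*-201 starts at the upstream site and has 619 codons before its stop. *Usp2*-202 starts 17918 bases further along, has 396 codons, and shares 347 of them with *Usp2*-201, so that 272 codons are particular to the longer form and 49 to the shorter one. *Usp2*-206 starts 11 bases after *Usp2*-202 and has 393 codons.

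The sequence before the internal start site is shown because both starts of *Usp2* are compared below and because it holds the core of a cAMP response element, a site bound by CREB-family factors that follow neuronal activity. It is the RefSeq promoter window of *Usp2* (GRCm38.p6, chr9:44084670-44084938, plus strand), read up to the base before the start of *Usp2*-202, with the letters TGACG in capitals.
Usp2 internal promoter: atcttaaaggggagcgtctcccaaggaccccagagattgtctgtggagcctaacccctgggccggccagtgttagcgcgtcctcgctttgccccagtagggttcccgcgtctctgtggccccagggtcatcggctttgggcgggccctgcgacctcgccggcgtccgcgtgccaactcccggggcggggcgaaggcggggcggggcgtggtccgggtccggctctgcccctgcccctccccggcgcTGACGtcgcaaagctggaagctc
The RefSeq start lies 19 bases before that of *Usp2*-202. Motifs were searched on both strands in windows of 300 bases, which were found for 36 of the 46 members. The shares of members count genes, whereas the shares beside them count windows. A gene with several windows could match more often, so the shares are not directly comparable. The core TGACG occurred once in the *Usp2* window and in 14 of the 36 members (38.9%), beside 20.8% of all 32851 windows. The whole element TGACGTCA, which contains that core, was present in *Usp29* alone among the 36 members (2.78%, beside 1.79% of all windows). The E-box CACGTG, which clock factors bind, was held by 4 members (11.1%, beside 7.15% of windows), namely *Usp4*, *Usp16*, *Usp31* and *Usp32*. The D-box TTATGTAA was in 0 members' windows (beside 0.938% of windows), and neither it nor the E-box was found in the *Usp2* window. The GC box GGGCGG was common, in 26 of 36 members (72.2%) against 35.7% of all windows, and occurred 3 times in the *Usp2* window, whose GC content was 71.7%. Member windows had a median GC content of 65.7% and all windows 52.7%. A match is a description of these letters, and the window of the upstream start was not analysed here.

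*Usp2* was at 63.5, 63.6, 58.9 and 62.8 CPM in vehicle replicates 1 to 4, and at 47.9, 42.5, 47.3 and 48.3 CPM in the MCH replicates. The treatments did not overlap, with all MCH wells the lower ones. These levels rest on 1639 to 1754 estimated counts per vehicle-treated well and 1133 to 1499 per MCH-treated well. The means were 62.2 ± 2.19 CPM with vehicle and 46.5 ± 2.67 CPM with MCH (SD, *n* = 4 each), a log2 fold change of −0.42 with a standard error (SE) of 0.05. Of the 14962 genes tested, 239 (1.6%) had a lower log2 fold change. The difference was seen in both sides (−0.49 among replicates 1 and 2, −0.35 among replicates 3 and 4), and *Usp2* itself differed between the sides by 0.01 on the log2 scale. Taken by replicate number, which no label gives as a pairing, the difference was −0.41, −0.58, −0.32 and −0.38 for numbers 1 to 4. In bulk RNA, fewer cells that express a gene and less RNA per cell cannot be told apart.

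**Figure D1:**
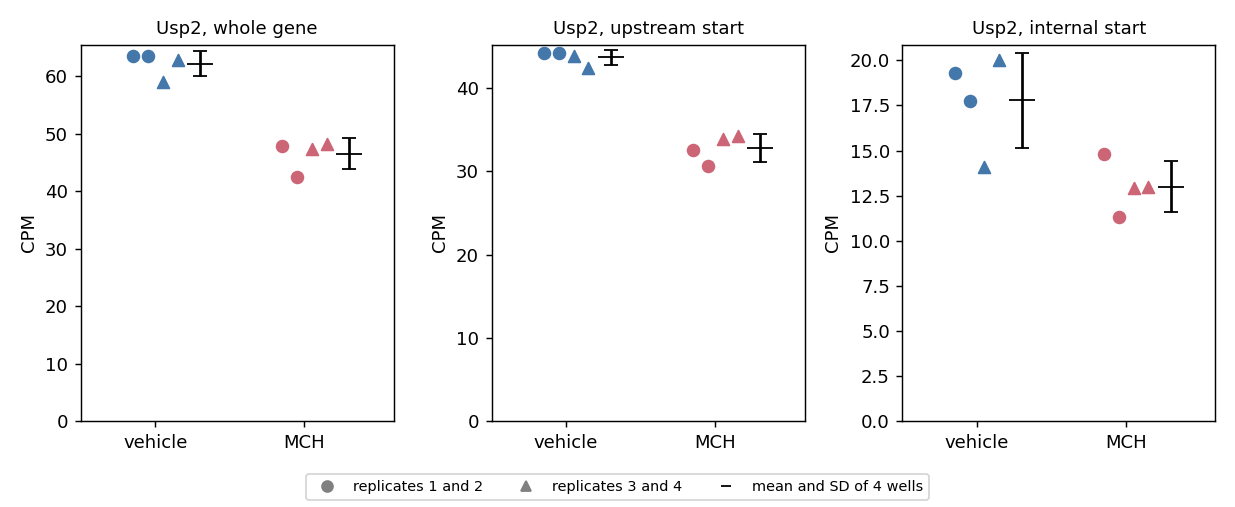
CPM of *Usp2* in each well for the whole gene, for the 4 transcripts of the upstream start and for the 2 of the internal start, with circles for replicates 1 and 2, triangles for replicates 3 and 4, and the mean and SD of 4 wells beside them. MCH-treated wells lie below all vehicle-treated wells for the gene and the upstream start, and overlap with them at the internal start, where vehicle replicate 3 (14.1 CPM) is below MCH replicate 1 (14.8 CPM).

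Most *Usp2* reads were assigned to the long form. *Usp2*-201 held 1136, 1196, 1242 and 1135 estimated reads in the vehicle-treated wells and 1018, 813.3, 976.2 and 969.5 in the MCH-treated wells. In TPM, which scale the reads of a transcript for its length and the depth, it was at 20.2 ± 0.436 with vehicle and 15.5 ± 0.799 with MCH (SD, *n* = 4), with no overlap between the treatments and a log2 fold change of −0.41 (SE 0.05). The short form *Usp2*-202 held 420.4, 252.7, 278.8 and 346.3 reads with vehicle and 159.3, 227.1, 192.1 and 199.2 with MCH, with a log2 fold change of −0.82 (SE 0.23). Its treatments did not overlap either. Its neighbour *Usp2*-206, which shares most of its sequence with *Usp2*-202, held 77.5, 236.6, 120.9 and 191.9 reads with vehicle and 303.7, 73.8, 182.2 and 169.9 with MCH (log2 fold change 0.10, SE 0.45). The split of reads between these neighbours differed widely from well to well, since the well with the most *Usp2*-206 reads, MCH replicate 1, had the fewest on *Usp2*-202. The pair was therefore also summed.

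Summed by start site, the upstream transcripts were at 44.2, 44.2, 43.9 and 42.4 CPM with vehicle and 32.5, 30.6, 33.9 and 34.2 CPM with MCH. The internal pair was at 19.3, 17.7, 14.1 and 20.0 CPM with vehicle and 14.8, 11.3, 12.9 and 13.0 CPM with MCH. The ratio of the mean levels was −0.41 on the log2 scale at the upstream start and −0.45 at the internal start. The upstream start took 70.3% ± 2.91 of the gene's reads with vehicle and 70.6% ± 1.86 with MCH, a difference smaller than the SD between wells. The internal start took 28.5% ± 3.48 and 27.9% ± 2.01. These shares count reads and are not scaled for transcript length. In TPM, the upstream start was at 20.55 ± 0.34 with vehicle and 15.57 ± 0.83 with MCH (SD, *n* = 4). The internal start was at 19.12 ± 2.81 TPM with vehicle and 15.08 ± 2.6 TPM with MCH. On this scale the starts lay within the SD of the internal start in both treatments. The short non-coding transcript *Usp2*-205 held 0 to 28.3 reads with vehicle and 13.0 to 31.0 with MCH, and a log2 fold change of 0.55 with an SE of 0.96. *Usp2*-204 was given reads in vehicle replicate 2 only (31.2), *Usp2*-207 and *Usp2*-208 held at most 22.9 in any well, and *Usp2*-203 and *Usp2*-209 were at 0 in all 8 wells.

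None of the 45 other members passed the test for a difference between MCH and vehicle, with 0 lower and 0 higher at an adjusted *P* value under 0.05 (edgeR's quasi-likelihood test, Benjamini–Hochberg adjustment over all 14962 genes). Over all tested genes, 35 were called (0.234%). At an unadjusted *P* value under 0.05, 6 of the 45 members stood out, 4 lower and 2 higher, beside 8.5% of all genes. DESeq2 called 1 member, *Usp12* (beside 1.31% of 12931 genes with an adjusted value). With the side as a block the same gene was the 1 call (beside 4.46% of genes), and with the replicate number as a block 0 were called (beside 3.98%). The log2 fold changes of the 45 members ran from −0.14 to 0.22 with a median of −0.02, 26 below 0 and 19 above, and the median over all tested genes was −0.0027. Their median absolute log2 fold change was 0.06, against 0.07 for all genes, and 81.6% of all genes lay inside the members' range. *Usp2* lay below it.

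**Figure D2:**
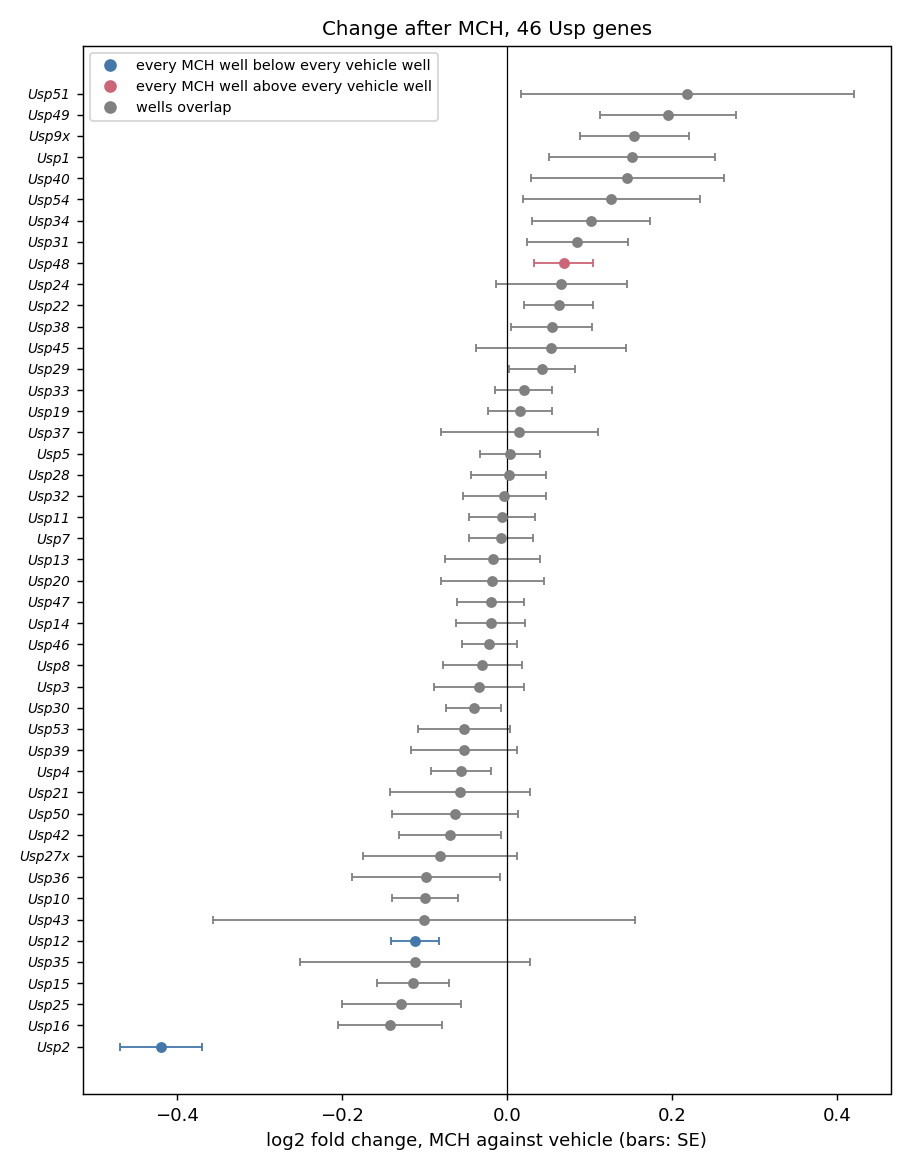
Log2 fold change of MCH against vehicle for the 46 members, sorted, with SE bars and colours for members whose 4 MCH-treated and 4 vehicle-treated wells do not overlap. *Usp2* is at −0.42, outside the range of −0.14 to 0.22 of the others, and only *Usp12* (−0.11, lower) and *Usp48* (0.07, higher) have wells apart beside it.

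Apart from *Usp2*, 2 of the 45 members had no overlap between treatments, beside 6.03% of all tested genes (902 genes). *Usp12*, which with its paralogue *Usp46* needs the WD-repeat protein Wdr48 for full activity, was at 131.8, 131.6, 128.8 and 130.6 CPM with vehicle and at 120.8, 120.6, 122.3 and 120.2 CPM with MCH. The wells of each treatment lay within a narrow band. Its log2 fold change was −0.11 (SE 0.03, unadjusted *P* = 0.0039, adjusted *P* = 0.266 in edgeR's test), and within the sides it was −0.13 (replicates 1 and 2) and −0.10 (replicates 3 and 4). The adjusted *P* value was 0.0296 with the side block, 0.03 in DESeq2 and 0.0557 with the replicate block, so its call depended on the fit. *Usp12* lies at chr5:146734809-146795006 on the minus strand. *Usp48*, a nuclear deubiquitinase, was at 68.7, 66.3, 69.0 and 65.4 CPM with vehicle and 72.9, 70.1, 70.1 and 69.5 CPM with MCH (log2 fold change 0.07, SE 0.04, adjusted *P* = 0.658 in edgeR), and differed by 0.08 (replicates 1 and 2) and 0.05 (replicates 3 and 4) within the sides. It lies at chr4:137593755-137658537 on the plus strand.

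Among the members that act on chromatin, 10 of the 11 listed genes were members and 0 were called, with 7 of 10 log2 fold changes below 0 and a median of −0.05. This group held both ends of the range. *Usp16*, a histone H2A deubiquitinase, had the lowest value among the 45 in this fit, at 30.5, 28.7, 25.3 and 27.0 CPM with vehicle and 26.5, 24.7, 24.8 and 25.0 CPM with MCH (log2 fold change −0.14, SE 0.06, adjusted *P* = 0.587 in edgeR). The treatments overlapped, and the value was −0.09 without vehicle replicate 1, −0.31 with a length offset and −0.016 with that offset taken without transcripts under 500 bases. *Usp51*, a low-level relative of the histone deubiquitinase *Usp22*, had the highest, at 2.29, 2.39, 2.01 and 1.49 CPM with vehicle and 2.24, 2.21, 2.08 and 2.98 CPM with MCH (log2 fold change 0.22, SE 0.20, adjusted *P* = 0.867 in edgeR). Vehicle replicate 4 was the lowest of the 8 wells and MCH replicate 4 the highest, and the value was 0.097 without the first and 0.098 without the second. *Usp49*, which acts on histone H2B, was at 24.0, 21.4, 21.1 and 21.2 CPM with vehicle and 28.2, 26.3, 23.6 and 22.1 CPM with MCH (0.20, SE 0.08, adjusted *P* = 0.56 in edgeR).

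The 9 members of DNA repair and the cell cycle ranged from −0.10 to 0.15 (median 0.02), the 7 of the proteasome and protein quality control from −0.13 to 0.02 (median −0.02), and the single splicing member, *Usp39*, was at −0.05. *Usp25*, in the quality control group, was at 27.0, 28.4, 25.7 and 24.4 CPM with vehicle and 25.4, 21.4, 25.7 and 24.1 CPM with MCH, so that the treatments overlapped (−0.13, SE 0.07, adjusted *P* = 0.703 in edgeR). It differed by −0.25 within replicates 1 and 2 and by −0.0083 within replicates 3 and 4, and its value was −0.07 without MCH replicate 2 and −0.085 without vehicle replicate 2. The 7 members of trafficking and receptors, which include *Usp12*, ranged from −0.11 to 0.15 (median −0.02). The highest of them was *Usp9x*, an X-linked enzyme with many substrates and roles in neuronal growth, at 370.6, 345.4, 368.5 and 367.7 CPM with vehicle and 458.3, 403.6, 361.0 and 393.2 CPM with MCH (0.15, SE 0.07, adjusted *P* = 0.563 in edgeR). MCH replicate 3 was below 3 of the 4 vehicle-treated wells. Within the sides, *Usp9x* differed by 0.27 (replicates 1 and 2) and 0.03 (replicates 3 and 4), and its value was 0.09 without MCH replicate 1.

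The 4 members of signalling ranged from −0.11 to 0.10 with a median of −0.00041. *Usp15*, which acts in TGF-β signalling, was the lowest of them, at 81.8, 83.0, 81.0 and 79.7 CPM with vehicle and 80.9, 74.7, 71.5 and 73.7 CPM with MCH (−0.11, SE 0.04, adjusted *P* = 0.501 in edgeR). The overlap came from MCH replicate 1. The 7 members in no role list (*Usp29*, *Usp31*, *Usp40*, *Usp43*, *Usp50*, *Usp53* and *Usp54*) ranged from −0.10 to 0.15.

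At the level of transcripts, 142 transcripts of 44 members other than *Usp2* passed the filter, and 0 were called by edgeR in either direction, as were 0 of all 33527 transcripts tested (0%). Unadjusted *P* values under 0.05 were found for 2 of the 142, beside 4.4% of all transcripts. They belonged to *Usp15*-201 (log2 fold change −0.11, SE 0.04) and *Usp9x*-201 (0.16, SE 0.07), chosen after their values were seen, which hold 93.4% or more of the reads of their genes. In 20 of 45 members over 90% of the reads lay on 1 transcript, and in 2 the leading transcript held under 50%. *Usp2* was between these, with 70% on its leading transcript.

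Between genes, levels were compared as TPM, summed over the transcripts of each gene. *Usp22*, the deubiquitinase of the SAGA transcription complex, was highest at 220.6 ± 17.2 TPM (SD, 8 wells). *Usp14*, a proteasome-bound enzyme, followed at 151.3 ± 5.53 TPM and *Usp5*, which takes apart free ubiquitin chains, at 141.1 ± 2.53 TPM. *Usp11* was at 110.7 ± 3.18 TPM and *Usp9x* at 98.3 ± 13.4 TPM. *Usp22* stood clear of the next genes, whereas *Usp9x* differed from the sixth, *Usp7* (96.4 ± 13.7 TPM), by less than the spread between wells. *Usp2* was 18th of 45 at 41.5 ± 5.65 TPM, with 45.4 ± 4.08 TPM and place 15 in the vehicle-treated wells and 37.7 ± 4.29 TPM and place 18 in the MCH-treated wells. These values include the short *Usp2*-205, at 4.77 ± 4.24 TPM with vehicle and 7.05 ± 2.88 TPM with MCH. It rested on means of 13.1 and 19.7 reads. The lowest members were *Usp43* (0.84 ± 0.191 TPM), *Usp51* (1.92 ± 0.37), *Usp40* (4.0 ± 0.705), *Usp49* (6.43 ± 1.18) and *Usp54* (7.26 ± 1.37). *Usp50* was left out of this order, because its transcripts in GENCODE vM21 held at most 4.91 reads in a well against 334.1 to 401.8 in the gene table. The other reads matched those of 1 transcript (ENSMUST00000099423) that this annotation does not name, and *Usp50* also overlaps *Usp8* on the opposite strand. As a group the members took between 0.405% and 0.427% of the counts of a well.

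**Figure D3:**
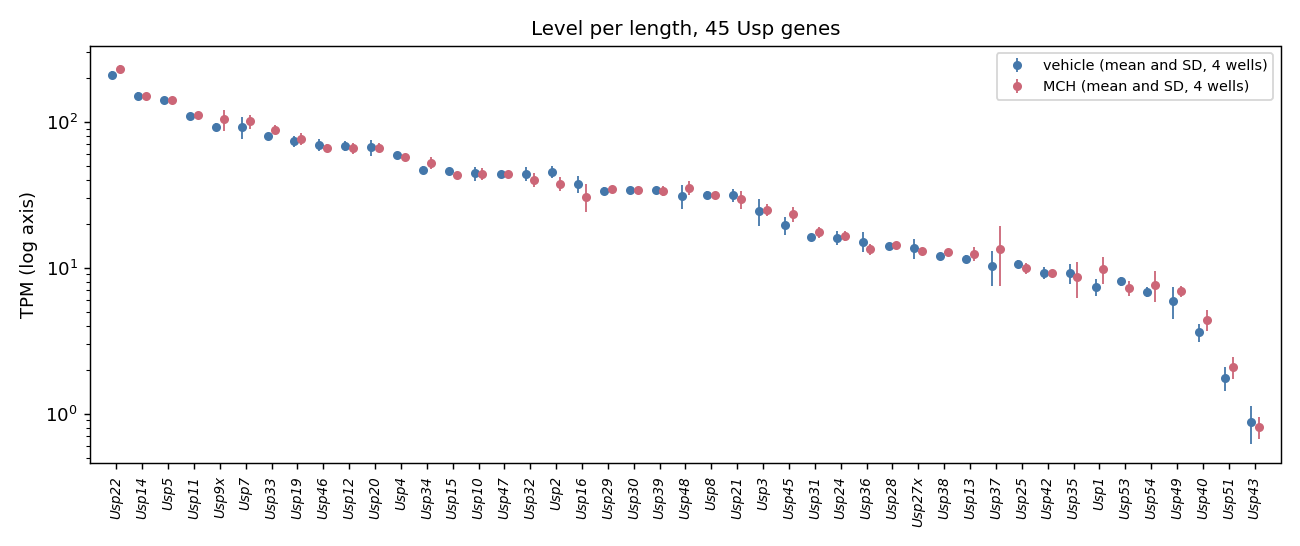
TPM on a log axis for 45 members in order of their level, with the mean and SD of 4 wells per treatment. Levels run from 0.84 TPM (*Usp43*) to 220.6 TPM (*Usp22*), and the 2 treatments lie close together beside this range.

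At the edge of the count rule, the lowest members were *Usp43*, with 25 to 50 counts per well, and *Usp51*, with 40 to 85. The 4 Usp genes outside it were *Usp18* (0 to 6 counts), which removes the ubiquitin-like protein Isg15 and is induced by interferon, *Usp44* (0 to 2), *Usp9y* (0 to 1), the Y-linked copy of *Usp9x*, and *Usp26* (0 in all wells). A count of 3 or fewer was taken as not distinguished from absence, which covers counting error only.

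Members differed between the sides of the wells about as often as all tested genes did. In 19 of the 46 members the wells of replicates 3 and 4 did not overlap with those of replicates 1 and 2 once the treatment means were removed, 7 higher and 12 lower in replicates 3 and 4, beside 37% of all tested genes. The sides were read from these counts, so this is a description. The members' median absolute difference was 0.08 on the log2 scale, against 0.12 over all genes. The largest differences upward in replicates 3 and 4 were those of *Usp43* (0.44), *Usp35* (0.37) and *Usp54* (0.26). *Usp35* was at 12.7 and 13.1 CPM in vehicle replicates 1 and 2 against 17.7 and 15.4 in replicates 3 and 4, and at 11.7 and 11.9 CPM against 16.4 and 14.5 with MCH. The largest downward were *Usp45* (−0.25), a DNA repair enzyme, the nucleolar *Usp36* (−0.24) and *Usp49* (−0.18). *Usp45* was at 51.4 and 51.2 CPM against 43.9 and 41.6 with vehicle, and at 52.9 and 53.0 CPM against 43.3 and 46.0 with MCH.

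Markers of other cells moved with the same sides. All 7 astrocyte markers were higher in replicates 3 and 4 without overlap, and their sum went from between 344.5 and 466.2 CPM in replicates 1 and 2 to between 1512 and 1719 CPM in the others. The oligodendrocyte list (4 of 6 tested markers higher, 57.4 to 67.9 against 126 to 147.5 CPM) had *Mog* and *Sox10* at 0 in every well. The rise of its sum lay mainly on *Olig1* (22.9 to 26.6 against 79.8 to 101.4 CPM). *Mbp* (29.9 to 37.5 against 34.0 to 39.2 CPM) and *Pdgfra* overlapped between the sides. All 6 tested fibroblast and vessel markers were higher as well (19.6 to 24.2 against 54.5 to 57.7 CPM). Microglial markers summed to 4.75 to 6.68 against 7.68 to 10.2 CPM, with 2 of the 4 tested markers higher without overlap. Neuron markers were lower in 5 of 8 cases (7706 to 8051 against 6999 to 7208 CPM), as were inhibitory neuron markers in 5 of 7 (2554 to 2780 against 2122 to 2377 CPM). The part of these cells in the side differences of the Usp genes was not tested. Within the sides the astrocyte sums also differed between treatments, in opposite directions. They were 466.2 and 415.7 CPM with vehicle and 376.4 and 344.5 CPM with MCH in replicates 1 and 2, where all 7 markers were lower with MCH, and 1585 and 1512 CPM with vehicle and 1719 and 1639 CPM with MCH in replicates 3 and 4, where all 7 were higher. *Usp2* differed by −0.49 in replicates 1 and 2 and by −0.35 in replicates 3 and 4, and the part of astrocytes in these values was not tested. The sums of inhibitory neuron markers were lower with MCH within both sides. They were 2780 and 2762 CPM against 2610 and 2554 CPM in the first pair, where 6 of 7 markers were lower. In the second pair they were 2162 and 2377 CPM against 2131 and 2122 CPM, with 1 of 7 markers higher. All 7 had a log2 fold change below 0 over the 8 wells (median −0.10), and 0 were called without a block. With the side block, which called 4.46% of all genes, 2 were called, *Gad1* (−0.10) and *Vip* (−0.22), both named after their values were seen. The part of these cells in the treatment differences of the Usp genes was not tested.

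**Figure D4:**
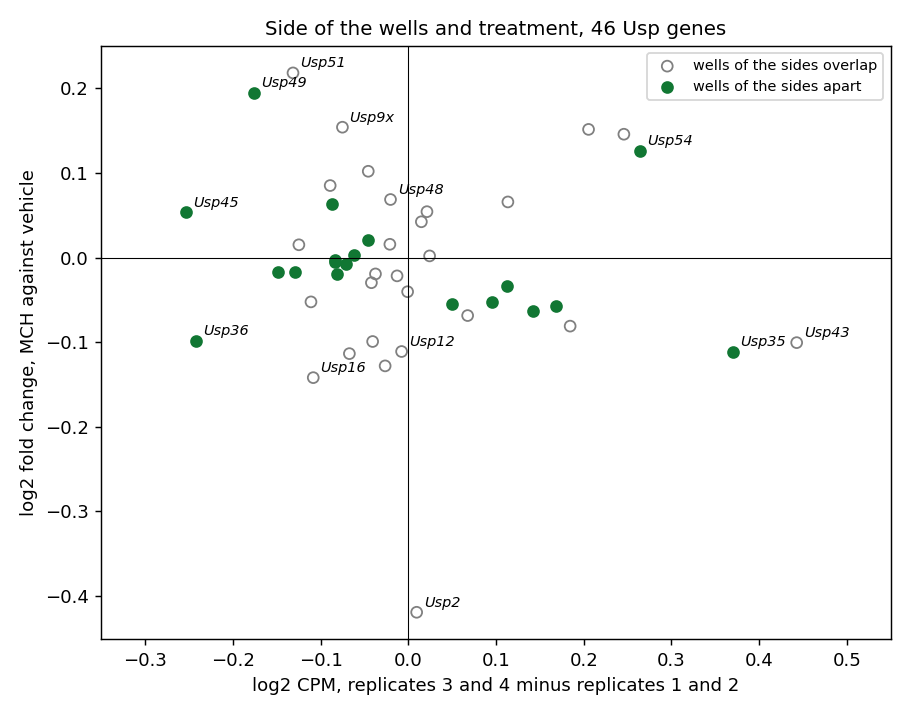
Log2 fold change after MCH against the log2 difference between replicates 3 and 4 and replicates 1 and 2, for the 46 members, filled where the wells of the sides do not overlap. *Usp2* lies alone at −0.42 with a side difference of 0.01, and the side differences run from −0.25 (*Usp45*, treatment difference 0.05) to 0.44 (*Usp43*, treatment difference −0.10).

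Genes that work with the Usp enzymes were read from the same fit. Of 33 deubiquitinases of other families, 0 were called (median log2 fold change −0.03, 26 below 0). Of 12 cofactors, 0 were called (median 0.05), and 0 of 11 neuronal ubiquitin ligases (median 0.08). Unadjusted *P* values under 0.05, held by 8.5% of all genes, were found in 2 of the 33, 4 of the 12 and 2 of the 11. Wells apart, seen in 6.03% of all genes, were found for 1 of the 33, 2 of the 12 and 1 of the 11. These genes, chosen after their values were seen, were *Otud1* (−0.24), *Wdr48* (0.07) and *Atxn7* (0.17), and *Mdm2* (−0.12). *Wdr48*, the activator of *Usp12*, was at 79.2 ± 0.658 CPM with vehicle and 83.1 ± 1.34 CPM with MCH (SD, *n* = 4, adjusted *P* = 0.585 in edgeR).

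Of the 8 genes whose proteins are known substrates of Usp2, 0 were called (median −0.08), 3 had an unadjusted *P* value under 0.05, and 3 were lower with wells apart, *Mdm2*, *Per1* and *Cry1*. The lists overlap, since *Mdm2* is also among the ligases and *Per1*, *Cry1* and *Arntl* are also among the clock genes below. Their counts are therefore not separate results. *Mdm2* was at 47.9 ± 1.12 CPM with vehicle and 44.2 ± 2.2 CPM with MCH (adjusted *P* = 0.516 in edgeR). Of 23 clock genes, likewise 0 were called (median −0.01, 12 below 0), 7 had an unadjusted *P* value under 0.05, and 5 had wells apart, beside the 6.03% of all genes. *Per1*, a repressor of the clock loop, was at 138.9 ± 13.4 CPM with vehicle and 90.7 ± 11.7 CPM with MCH (log2 fold change −0.62, SE 0.10, adjusted *P* = 0.069 in edgeR). *Per2* (−0.35, SE 0.07), *Cry1* (−0.26, SE 0.08) and *Cry2* (−0.19, SE 0.05) were lower with wells apart, and the nuclear receptor *Nr1d1* was higher (0.31, SE 0.09). Their adjusted *P* values in edgeR without a block were 0.126, 0.36, 0.216 and 0.358 in that order. With the replicate number or with the side as a block, 7 clock genes were called, 6 lower and 1 higher (beside 3.98% and 4.46% of all genes), and DESeq2 called 3 (beside 1.31%), so these calls depended on the fit. The side block calls were the 5 genes with wells apart, with *Nfil3* (−0.46) and *Bhlhe40* (−0.30). These last 2 were named after their values were seen, and their wells overlapped between treatments. Among the 5, the adjusted *P* values in edgeR with the side block ran from 1.24e-08 (*Per1*) to 0.0442 (*Cry1*). Set among the clock genes, the difference of *Usp2* (−0.42) lay between those of *Nfil3* and *Per2*.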

How the data were processed

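Libraries of 8 wells (4 vehicle, 4 MCH) were grouped by their labels. The authors quantified the reads with Salmon on GRCm38 and deposited estimated counts per gene and, per transcript, estimated counts, effective lengths and TPM values, the latter scaled for length and depth. Of the gene values, 9.13% are not whole, and counts were rounded. GENCODE vM21, which may not be the authors' annotation, named 45143 of 45706 genes.

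Counts were analysed in R 4.3.3 with edgeR 4.0.16 (TMM factors, filterByExpr by treatment with minimum count 10 and total 15, robust quasi-likelihood test, Benjamini–Hochberg adjustment over all genes or transcripts tested, threshold 0.05). The method was tested on simulated data. DESeq2 1.42.0, blocks, other scaling, length offsets, no filter and left-out wells were alternatives. Log2 CPM used a prior count of 2. Wells of the same replicate number correlated at 0.445 to 0.545 in deviations from the treatment means. Wells of other numbers on the same side correlated at 0.475 to 0.521 and wells across sides at −0.548 to −0.438. The counts therefore show the sides but no pairing by number, and no label says what a number marks.

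Members and lists were chosen with earlier results of these data known. Named are *Usp2* and its transcripts with a mean of at least 10 reads, members called in the fit without or with a block, the 3 lowest and 3 highest log2 fold changes, members and clock genes with wells apart, the 5 highest and 5 lowest TPM, the 3 largest side differences each way, and members at the edge of the count rule.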

Additional observations from a re-analysis of the deposited data

Results flagged for a closer look

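In 6 of 110 groups of 4 wells examined (the 46 members, 4 *Usp2* transcripts and the 5 clock genes with wells apart, by treatment), 1 well stood far from the other 3, its gap to the nearest one divided by the whole range exceeding Dixon's critical value at 95% for 4 values. Chance gives such a gap in about 1 of 20 groups of 4 like wells, and the wells of a treatment here fall into 2 sides. With vehicle, *Usp9x* was low in replicate 2 (345.4 CPM against 367.7 to 370.6, ratio 0.882), *Usp39* was high in replicate 2 (43.2 against 37.0 to 38.0, ratio 0.841) and *Usp49* was high in replicate 1 (24.0 against 21.1 to 21.4, ratio 0.898). With MCH, replicate 1 was high for *Usp34* (284.6 CPM against 225.4 to 232.9, ratio 0.874) and for *Usp37* (33.4 against 24.8 to 26.1, ratio 0.847), and replicate 3 was high for *Usp30* (55.7 against 53.6 to 53.8, ratio 0.879). None of these wells belonged to *Usp2* or *Usp12*.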

How the results depend on the processing

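The log2 fold change of *Usp2* was −0.42 with and without the replicate block, and −0.44 to −0.37 with 1 well left out. It was −0.28 with a length offset. The offset taken without transcripts under 500 bases, an alternative chosen after seeing the data as were the fits on 1 side, gave −0.41, and replicates 3 and 4 alone −0.35. The ranges with 1 well left out were −0.42 to −0.37 for *Usp2*-201, −0.94 to −0.64 for *Usp2*-202, −0.20 to 0.36 for *Usp2*-206 and 0.15 to 1.22 for *Usp2*-205, so the direction of *Usp2*-206 turned on single wells. Of the 45 other members, 0 were called with the replicate number as a block, in every fit with 1 well left out and on either side alone. The side block and DESeq2 each called 1, *Usp12*. *Usp12* ran from −0.11 to −0.07 over 17 alternatives, with adjusted *P* from 0.0296 to 0.935. *Usp51* turned to −0.055 in replicates 1 and 2 alone. No transcript of these members was called under any alternative run (0 to 0 with 1 well left out). Ranked by CPM in place of TPM, *Usp2* was 24th. Over the whole table, 35 genes were called without a block, 596 with the replicate block, 668 with the side block and 170 in DESeq2.

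Clock genes called numbered 7 with the replicate block, 7 with the side block, 3 in DESeq2, 3 in replicates 1 and 2 alone, 6 in replicates 3 and 4 alone and 0 to 1 with 1 well left out. Usp2 substrate genes called numbered 2, 2, 1, 1, 1 and 0 to 1 under the same settings, and ubiquitin ligases 1 with the side block. The substrate list shares *Per1*, *Cry1* and *Arntl* with the clock list. The lists of other deubiquitinases and of cofactors had 0 calls under these settings, 0 to 0 with 1 well left out. Over all genes, 3.98% were called with the replicate block, 4.46% with the side block and 1.31% in DESeq2. No share over all genes was taken for the fits on 1 side or with 1 well left out, so the counts from those fits cannot be set beside one. The cause of the shifts between settings was not tested. *Usp43* and *Usp51*, with at most 50 and 85 counts in a well, are the members where depth limits a comparison most.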
